A study of Mus musculus with 12 samples.

Results

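Coenzyme Q (CoQ) biosynthesis is represented here by 10 mouse genes, namely Pdss1, Pdss2, Coq2, Coq3, Coq4, Coq5, Coq6, Coq7, Coq8a and Coq9. They were taken by name as the genes of this pathway and not by any measured value. All 10 were found among the 55401 genes of the deposited counts, Coq8a under its older symbol Adck3, and all 10 passed the filter on low counts that left 16540 genes for the tests. RNA-seq was performed on scWAT, the fat under the skin, from 12 female mice, 3 in each of 4 groups. Wild-type (Jmjd1a +/+) mice and Jmjd1a HY/HY mice spent a first week at 30°C, which is thermoneutral for a mouse, and the following week at either 30°C or 8°C. The mice were 16 weeks old at the start and were caged singly. The HY allele is a knock-in on the C57BL/6J background that replaces histidine by tyrosine in the catalytic site of the histone demethylase JMJD1A (H1122Y). HY/HY mice carry it in every tissue and not only in fat, and they came from 1 knock-in line. The comparisons ask whether the RNA of the CoQ genes follows the cold response of scWAT and whether that response differs between the genotypes.

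Coenzyme Q, or ubiquinone, is a lipid of the inner mitochondrial membrane that carries electrons from several dehydrogenases to complex III of the respiratory chain. It consists of a ring that is oxidised and reduced and of a long isoprenoid tail that keeps it in the membrane. PDSS1 and PDSS2 build the tail, COQ2 joins it to the ring, and a complex that holds COQ3 to COQ7 and COQ9 then modifies the ring inside mitochondria, with COQ8A supporting the assembly. Brown and beige adipocytes, which burn fuel for heat, are rich in mitochondria.

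The libraries held between 13592629 and 26352081 counts on the sense strand of genes, and the 6 cold libraries were the smallest. Levels are given as CPM, counts relative to a common library total, after scaling by the TMM method. The 6 markers of brown and beige adipocytes, among them Ucp1, summed to between 74.9 and 199.7 CPM in warm wild-type mice (30°C) and between 65.1 and 233.2 CPM in warm HY/HY mice. In cold mice (8°C) they summed to between 8277 and 9173 CPM with the wild-type and between 515.5 and 1650 CPM with the HY/HY genotype, with none at 0 in all 3 libraries of a group. The 6 white adipocyte markers, the defining genes of this tissue, summed to at least 12858 CPM in every library. Replicate 2 of wild-type mice at 30°C stood apart in skeletal muscle markers, which summed to 1205 CPM there and to at most 22.6 CPM in each of the other 11 libraries. Replicate 3 of HY/HY mice at 30°C held 37245 CPM of white adipocyte markers, against 20410 and 12858 CPM in the other libraries of its group. In whole tissue, fewer cells of a type and less RNA per cell cannot be told apart, so a level below is a share of all RNA in the fat pad.

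Promoter sequences from RefSeq (GRCm38.p6, the build of the files, mm10) were matched for 9 of the 10 genes. The sequences shown are the bases before the start site of Coq3, Coq7 and Coq8a, which rose in the cold, and of Coq2, the member whose level lay flat across the 4 groups. The stretch of Coq2 ends 32 bases before the start site of its window, and the other stretches end at theirs. They are read 5′ to 3′ on the strand of the gene, in lower case, with capitals for a match to a searched motif.
Coq3, chr4:21879396-21879645, plus strand: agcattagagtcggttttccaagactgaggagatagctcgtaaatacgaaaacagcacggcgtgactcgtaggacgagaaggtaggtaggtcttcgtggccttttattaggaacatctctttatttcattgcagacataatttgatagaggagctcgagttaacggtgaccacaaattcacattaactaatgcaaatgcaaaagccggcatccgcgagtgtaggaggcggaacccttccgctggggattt
Coq7, chr7:118533357-118533606, minus strand: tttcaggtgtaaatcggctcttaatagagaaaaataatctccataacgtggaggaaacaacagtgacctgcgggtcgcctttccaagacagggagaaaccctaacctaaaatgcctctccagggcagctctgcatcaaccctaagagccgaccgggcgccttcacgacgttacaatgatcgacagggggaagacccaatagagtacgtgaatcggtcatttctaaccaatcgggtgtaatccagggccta
Coq8a, chr1:180196021-180196270, minus strand, with the Sp1 motif GGGCGG in capitals: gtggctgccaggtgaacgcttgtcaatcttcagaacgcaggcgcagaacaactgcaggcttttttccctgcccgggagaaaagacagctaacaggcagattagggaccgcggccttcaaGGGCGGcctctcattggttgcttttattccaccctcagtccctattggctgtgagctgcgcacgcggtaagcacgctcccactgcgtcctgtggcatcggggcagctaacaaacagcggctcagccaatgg
Coq2, chr5:100674289-100674506, minus strand, with the NRF1 motif in capitals (GCATGCGC as read on the other strand): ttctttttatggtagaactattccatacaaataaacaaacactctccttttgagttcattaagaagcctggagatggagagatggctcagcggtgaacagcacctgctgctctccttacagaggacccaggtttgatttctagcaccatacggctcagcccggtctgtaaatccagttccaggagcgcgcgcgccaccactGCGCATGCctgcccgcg
Motifs were searched on both strands from 250 bases before to 50 bases after each start site, which gave 11 windows for the 9 genes. The NRF1 motif GCATGCGC stood in the window of Coq2 and in 2.71% of all 32851 promoters of the same length. The ERR motif AAGGTCA stood in the window of Pdss1 and in 4.72% of all promoters. The ETS motif CCGGAAG, the core bound by GABPA, stood at Coq6, Pdss1 and Pdss2 and in 8.86% of all promoters. The Sp1 motif GGGCGG stood at Coq3, Coq6, Coq8a, Coq9 and Pdss2 and in 35.7% of all promoters, at Coq3 in the window of another start site beyond the stretch shown, and the YY1 motif AAGATGGCG stood at Coq9 and in 1.4%. No searched motif was common to the genes that rose in the cold, and a match is a description of the letters only.

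In wild-type mice, 8 of the 10 CoQ genes had a higher level at 8°C than at 30°C, with fold changes between 1.85 for Pdss2 and 4.19 for Coq8a. Among all genes tested, 10.3% were called higher in this comparison. Coq2 and Coq4 were not called, and no CoQ gene was called lower, against 6.93% of all genes. Calls needed an adjusted p under 0.05 (quasi-likelihood test of edgeR, adjusted by Benjamini-Hochberg over all 16540 genes) together with a fold change beyond 1.5 upwards or 0.67 downwards. In 9 genes, all but Coq2, the 3 cold libraries lay above the 3 warm ones, against 20.7% of all genes, and in none of the 10 below them, against 22.7%. The median log2 fold change of the 10 genes was 1.43, against -0.069 for all genes tested. The summed level of the 10 genes was between 320.0 and 470.1 CPM in the 3 warm and between 938.6 and 1088 CPM in the 3 cold wild-type mice. The same sum in HY/HY mice was between 338.5 and 486.5 CPM at 30°C and between 524.7 and 609.1 CPM at 8°C, so the 4 ranges overlapped only between the genotypes at 30°C. In the same comparison all 6 brown and beige adipocyte markers and 4 of 5 endothelial markers were called higher, and 5 of 6 skeletal muscle, 2 of 6 mammary epithelium and 1 of 6 white adipocyte markers were called lower. High muscle markers were seen only in warm wild-type replicate 2, at 1205 CPM against at most 22.6 CPM in every other library. The part of these cell types in the CoQ values was not tested. The same 8 CoQ genes were called with any 1 of the 12 libraries left out, the one with muscle markers included.

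**Figure D1:**
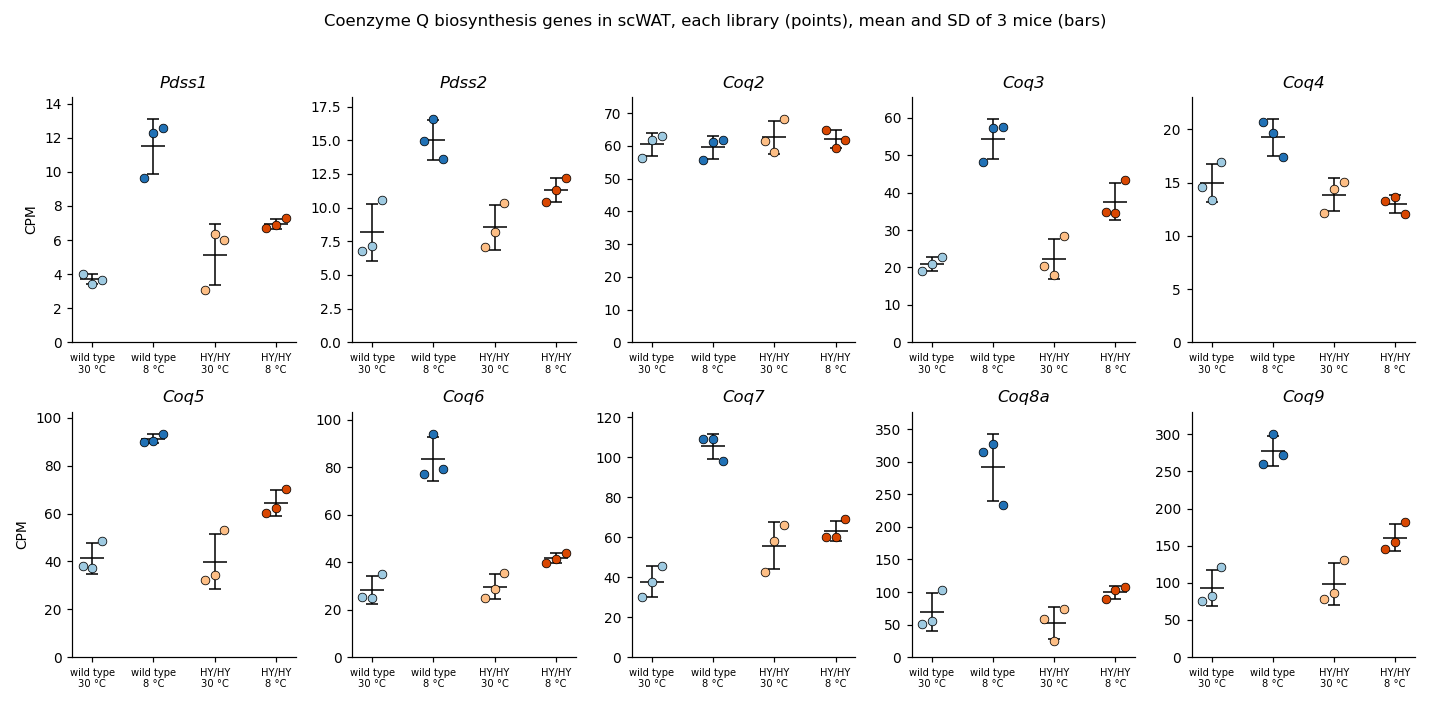
Level of each CoQ biosynthesis gene (CPM, axis from 0) in every library of the 4 groups, with points for libraries and bars for the mean and SD of 3 mice. Coq8a lies between 233.0 and 327.1 CPM in wild-type mice at 8°C and at or below 107.8 CPM in all other libraries, while Coq2 lies between 55.6 and 68.2 CPM in all 12.

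The tail is made by a complex of PDSS1, the catalytic subunit, and PDSS2, its partner. Pdss1 (ENSMUSG00000026784.14, chromosome 2 from 22894382 to 22940266) stood at 4.03, 3.42 and 3.66 CPM in warm and 9.65, 12.3 and 12.6 CPM in cold wild-type mice, and in HY/HY mice at 3.10, 6.33 and 6.02 CPM at 30°C and at 6.73, 6.87 and 7.30 CPM at 8°C. All 3 cold libraries lay above the warm ones in each genotype, and the cold HY/HY libraries lay below the cold wild-type ones. In wild-type mice Pdss1 rose 3.10-fold in the cold (log2 fold change 1.63, SE 0.24, adjusted p = 0.00068). Its cold difference in HY/HY mice was 1.35-fold (adjusted p = 0.422). These are low levels, resting on 69 to 196 counts per library. Reads on the opposite strand, where Abi1 overlaps Pdss1, came to 16% of all reads counted on Pdss1 over the 12 libraries.

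Pdss2 (ENSMUSG00000038240.13, chromosome 10 from 43218248 to 43464882) stood at 6.75, 7.17 and 10.6 CPM in warm and at 14.9, 16.6 and 13.6 CPM in cold wild-type mice, and in HY/HY mice at 7.04, 8.22 and 10.3 CPM warm and at 10.4, 11.3 and 12.2 CPM cold. Again the cold libraries lay above the warm ones in each genotype, by a narrow gap in HY/HY mice. The rise of 1.85-fold in wild-type mice was the smallest among the genes called (log2 fold change 0.88, SE 0.19, adjusted p = 0.0072). With library totals in place of TMM, the log2 fold change of Pdss2 was 0.56 at an adjusted p of 0.0175 and its fold stood under the limit of 1.5. That scaling moved the median of all genes from -0.069 to -0.41. With it 7 of the 10 CoQ genes were called higher and 0 lower, against 1057 and 4133 of all 16540 genes.

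Within a library the log2 ratio of Pdss1 to Pdss2 counts, which is free of library scaling, averaged -1.11 ± 0.39 in warm and -0.39 ± 0.26 in cold wild-type mice (SD of 3 libraries). The ratios at 8°C all lay above those at 30°C, a difference of 0.72 (two-sided exact permutation test, p = 0.1, the smallest that 3 against 3 libraries allows). In HY/HY mice the ratio was -0.78 ± 0.40 at 30°C and -0.69 ± 0.057 at 8°C, a difference of 0.085 (exact permutation p = 0.7). Between the genotypes at 8°C the libraries did not overlap, with HY/HY lower by a difference of -0.30 (exact permutation p = 0.1). The gap was very narrow, from -0.628 in HY/HY replicate 1 to -0.627 in wild-type replicate 1.

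COQ2, the prenyltransferase that joins tail and ring, is encoded by Coq2 (ENSMUSG00000029319.8, chromosome 5 from 100654723 to 100674288). Its level was 56.4, 61.8 and 63.0 CPM in warm and 55.6, 61.3 and 61.7 CPM in cold wild-type mice, and in HY/HY mice 61.5, 58.0 and 68.2 CPM at 30°C and 64.8, 59.4 and 61.9 CPM at 8°C. The 4 groups overlapped throughout, and the coefficient of variation within a group was between 4.38% and 8.25%. The cold difference of Coq2 in wild-type mice was 0.99-fold, with a 95% interval from 0.856 to 1.13 (adjusted p = 0.894), and in HY/HY mice it was 0.99-fold, with an interval from 0.862 to 1.14 (adjusted p = 0.971). Its interval therefore lay below the lowest fold of any called CoQ gene, 1.85. With library totals in place of TMM its log2 fold change in wild-type mice was -0.36, close to the -0.41 of the median gene under that scaling.

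The ring is modified by methyltransferases (COQ3 and COQ5), hydroxylases (COQ6 and COQ7) and COQ4, a small protein on which the complex depends. Coq3 (ENSMUSG00000028247.2, chromosome 4 from 21879646 to 21912163) stood at 19.0, 21.0 and 22.8 CPM in warm and at 48.2, 57.2 and 57.7 CPM in cold wild-type mice, and in HY/HY mice at 20.5, 18.1 and 28.3 CPM warm and at 34.7, 34.7 and 43.3 CPM cold. The 4 groups stepped from both warm groups through cold HY/HY to cold wild-type mice with no overlap at 8°C. Coq3 rose 2.60-fold in wild-type mice (log2 fold change 1.38, SE 0.17, adjusted p = 0.00018), and the difference in HY/HY mice was 1.69-fold (log2 0.75, SE 0.16, adjusted p = 0.0923).

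Coq5 (ENSMUSG00000041733.10, chromosome 5 from 115279666 to 115296974) stood at 38.1, 37.2 and 48.7 CPM in warm and at 90.0, 90.5 and 93.4 CPM in cold wild-type mice, and in HY/HY mice at 32.2, 34.3 and 53.0 CPM warm and at 60.2, 62.4 and 70.4 CPM cold. Its spread between cold wild-type mice was the smallest of the 10 genes in that group, with a coefficient of variation of 1.96%. The rise in wild-type mice was 2.21-fold (log2 1.15, SE 0.17, adjusted p = 0.00088), and the difference in HY/HY mice was 1.62-fold (adjusted p = 0.126).

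Coq6 (ENSMUSG00000021235.13, chromosome 12 from 84361756 to 84373796) was measured at 25.3, 24.7 and 35.0 CPM in warm and at 77.0, 94.0 and 79.4 CPM in cold wild-type mice, and in HY/HY mice at 24.9, 28.8 and 35.5 CPM warm and at 39.5, 41.3 and 43.7 CPM cold. Cold HY/HY libraries lay just above the warm ones and far below the cold wild-type ones. Coq6 rose 2.95-fold in wild-type mice (log2 1.56, SE 0.16, adjusted p = 7.0e-05), against 1.4-fold in HY/HY mice (adjusted p = 0.205).

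Coq7 (ENSMUSG00000030652.11, chromosome 7 from 118509659 to 118533356) was measured at 29.9, 37.6 and 45.5 CPM in warm and at 109.0, 109.2 and 98.2 CPM in cold wild-type mice, and in HY/HY mice at 42.8, 58.2 and 66.1 CPM warm and at 60.3, 60.3 and 69.1 CPM cold. In HY/HY mice the cold and the warm libraries overlapped, which was otherwise so for Coq2 and Coq4 alone among the 10 genes. In wild-type mice Coq7 rose 2.80-fold (log2 1.49, SE 0.17, adjusted p = 0.00015). Its difference in HY/HY mice was 1.14-fold, with a 95% interval from 0.878 to 1.47 (adjusted p = 0.656).

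Coq4 (ENSMUSG00000026798.10, chromosome 2 from 29787493 to 29797935) stood at 14.6, 13.4 and 16.9 CPM in warm and at 20.7, 19.7 and 17.4 CPM in cold wild-type mice, and in HY/HY mice at 12.1, 14.4 and 15.1 CPM warm and at 13.3, 13.7 and 12 CPM cold. The cold wild-type libraries lay above all the others by a narrow gap. Reads on the opposite strand, where Trub2 lies, came to 6.51% of all reads counted on Coq4. The cold difference in wild-type mice, 1.29-fold, did not pass the test (log2 0.36, SE 0.13, adjusted p = 0.0638), and it was 0.04 on the log2 scale with library totals. In HY/HY mice the difference was 0.938-fold (adjusted p = 0.79).

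COQ8A, an atypical kinase that supports the complex, and COQ9, a lipid-binding partner of COQ7, assist the enzymes of the ring. Coq8a (ENSMUSG00000026489.13, chromosome 1 from 180165238 to 180196020) stood at 50.1, 56.0 and 102.9 CPM in warm and at 315.1, 327.1 and 233.0 CPM in cold wild-type mice, and in HY/HY mice at 59.0, 25.3 and 73.3 CPM warm and at 88.6, 102.7 and 107.8 CPM cold. It was the most variable member between warm mice, with a coefficient of variation of 41.6% in wild-type and 46.9% in HY/HY mice, and the cold HY/HY range enclosed the highest warm wild-type library. Reads on the opposite strand, where Cdc42bpa lies, came to 6.19% of all reads counted on Coq8a. The rise in wild-type mice, 4.19-fold, was the largest of the 10 genes (log2 2.07, SE 0.36, adjusted p = 0.0020), and the difference in HY/HY mice was 1.90-fold (log2 0.93, SE 0.35, adjusted p = 0.257).

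Coq9 (ENSMUSG00000031782.15, chromosome 8 from 94838413 to 94854895) stood at 75.8, 82.5 and 121.0 CPM in warm and at 260.3, 300.5 and 271.7 CPM in cold wild-type mice, and in HY/HY mice at 78.4, 86.9 and 130.7 CPM warm and at 146.1, 155.4 and 181.5 CPM cold. Its cold libraries lay above its warm ones in each genotype, with cold HY/HY between warm and cold wild-type mice. Coq9 rose 2.98-fold in wild-type mice (log2 1.58, SE 0.21, adjusted p = 0.00042), and the difference in HY/HY mice was 1.63-fold (log2 0.71, SE 0.21, adjusted p = 0.173).

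Per kilobase of the longest coding transcript in GENCODE M1, where levels of different genes can be set side by side, Coq9 stood first in all 4 groups, at 52.0 CPM per kilobase in warm and 155.1 in cold wild-type mice. In warm HY/HY mice, at 55.2, it overlapped the next gene, Coq7, at 45.9. Coq2 came next in warm wild-type mice, at 34.7 CPM per kilobase, and did not differ from Coq7, at 31.0, beyond the spread of the libraries. In cold wild-type mice Coq2 took the sixth place at 34.1 CPM per kilobase, below Coq7 (86.8), Coq8a (72.5), Coq6 (47.0) and Coq5 (44.8), of which Coq7 and Coq8a overlapped, as did Coq6 and Coq5. Pdss2 stood last in all 4 groups, between 2.0 and 3.69 CPM per kilobase, and overlapped Pdss1 in both warm groups.

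No CoQ gene was called between 8°C and 30°C in HY/HY mice, where 0.181% of all genes were called higher and 0.0665% lower (edgeR). At an unadjusted p under 0.05 there were 5 of the 10 (Coq3, Coq5, Coq6, Coq8a and Coq9), against 14.7% of all genes in either direction. DESeq2 called 2 higher (Coq3 and Coq5), against 0.696% of the 30898 genes to which it gave a p-value. That set was not filtered for low counts, so its shares are not directly comparable with those of edgeR. With the replicate number as a block, 3 of the 10 were called higher: Coq3 (adjusted p = 0.0234), Coq5 (adjusted p = 0.0309) and Coq9 (adjusted p = 0.0498). The block was chosen from deviations of same-numbered HY/HY libraries in these same data, and the labels name no pairing. The block also raised the share of all genes called higher, to 0.774%. In 7 of the 10 genes all 3 cold HY/HY libraries lay above the 3 warm ones, against 9.33% of all genes, and in none below them, against 8.99%. The median log2 fold change was 0.46, and that of all genes was -0.015. Without replicate 3 of the warm HY/HY mice Coq3, Coq5, Coq6 and Coq9 were called higher, and so were 2.72% of all genes.

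**Figure D2:**
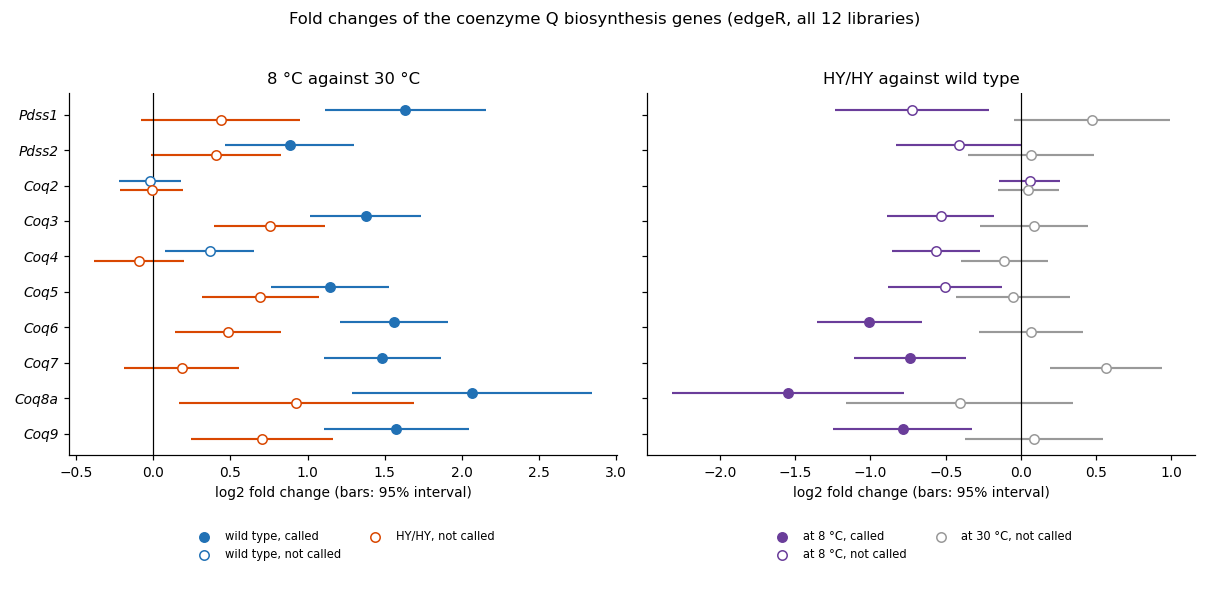
Log2 fold change with its 95% interval for each CoQ gene, on the left between 8°C and 30°C in each genotype and on the right between HY/HY and wild-type mice at each temperature. Filled points are called genes, of which the left panel has 8, all in wild-type mice, and the right panel has 4, all at 8°C.

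Between the genotypes at 8°C, 4 of the 10 genes were lower in HY/HY than in wild-type mice, namely Coq6, Coq7, Coq8a and Coq9. Of all genes 4.42% were called lower and 1.51% higher in this comparison. Coq8a stood at 34.2% of its level in cold wild-type mice (log2 fold change -1.55, SE 0.35, adjusted p = 0.0220). Coq6 stood at 49.8% (log2 -1.01, SE 0.16, adjusted p = 0.0040), Coq9 at 58.0% (log2 -0.79, SE 0.21, adjusted p = 0.0439) and Coq7 at 60.0% (log2 -0.74, SE 0.17, adjusted p = 0.0240). Coq4 passed the limit on p (adjusted p = 0.0263) but, at 67.5%, missed the fold limit of 0.67.

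The other members were not called at 8°C, at 60.5% of the wild-type level for Pdss1 (adjusted p = 0.0868), 69.1% for Coq3 (adjusted p = 0.0706), 70.5% for Coq5 (adjusted p = 0.103) and 75.1% for Pdss2 (adjusted p = 0.233). Coq2 stood at 104.2%, with a 95% interval from 0.905 to 1.20 as a fold (adjusted p = 0.763). For the 9 genes other than Coq2 all 3 cold HY/HY libraries lay below the 3 cold wild-type ones, against 19% of all genes, and for none above them, against 16.4%. The median log2 fold change of the 10 genes was -0.65, against 0.012 for all genes. The count of called genes rested on all 6 cold libraries. Without replicate 1, 2 or 3 of the cold HY/HY mice, or replicate 1 or 2 of the cold wild-type mice, Coq6 alone was called, and without replicate 3 of the cold wild-type mice Coq6 and Coq8a were called. In these 6 fits between 1.78% and 3.34% of all genes were called lower. DESeq2 called 6, adding Coq4 and Pdss1, and 3.04% of the 30898 genes to which it gave a p-value, a set not filtered for low counts. Coq8a and Coq9 belong to a list of direct JMJD1A targets that the study drew in part from these same libraries. That list required JMJD1A binding and a peak of the histone mark H3K27ac particular to cold beige adipocytes, both from other data. It also required a rise in the cold in wild-type mice and a lower level in HY/HY mice at 8°C. Neither direction of Coq8a and Coq9 is therefore independent of that list. Beige adipocyte markers differed the same way at 8°C, with all 6 called lower in HY/HY mice, and 2 of 6 macrophage, 1 of 6 white adipocyte and 1 of 5 fibroblast and progenitor markers were called higher. The call of Ucp1 was lost with any 1 of 5 libraries left out (edgeR, adjusted p between 0.0598 and 0.101). The part of these cell types in the CoQ values was not tested either.

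At 30°C no CoQ gene was called between the genotypes by edgeR or by DESeq2, with 0.562% of all genes called higher and 0.441% lower. The median log2 fold change of the 10 genes was 0.067, and no CoQ gene had its 3 libraries of a genotype all above or all below those of the other, against 7.67% and 10.6% of all genes. Only Coq7 of the 10 had an unadjusted p under 0.05, which 18.6% of all genes had, at 1.48-fold with a 95% interval from 1.14 to 1.91 (adjusted p = 0.115). Without replicate 1 of the warm HY/HY mice, the lowest of its group for both genes, Coq7 and Pdss1 were called higher, as were 1.61% of all genes. In each warm group replicate 3 was the library with the most white adipocyte markers, 25163 CPM in wild-type and 37245 CPM in HY/HY mice, and the highest library for 9 of the 10 CoQ genes, with Pdss1 as the exception. The part of adipocyte content in these levels was not tested.

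The cold response itself differed between the genotypes for Coq6 and Coq7, tested as an interaction at an adjusted p under 0.05, which 2.07% of all genes passed as lower and 0.169% as higher. The response in HY/HY mice minus that in wild-type mice was -1.08 on the log2 scale for Coq6 (SE 0.22, adjusted p = 0.0327) and -1.30 for Coq7 (SE 0.24, adjusted p = 0.0221). For Coq7 the warm level in HY/HY mice was the higher of the warm levels and the cold level the lower of the cold ones. The differences of Coq8a (-1.14, SE 0.49, adjusted p = 0.300), Pdss1 (-1.20, SE 0.33, adjusted p = 0.0974) and Coq9 (-0.87, SE 0.30, adjusted p = 0.185) did not pass, and the median over the 10 genes was -0.75, against 0.043 for all genes. Neither Coq6 nor Coq7 was called when any 1 of the 6 cold libraries or replicate 1 or 2 of the warm wild-type mice was left out. With 1 cold library left out, between 0.378% and 0.82% of all genes passed as lower. Without replicate 1 or 2 of the warm wild-type mice, 81 of 16872 and 117 of 16808 genes did. Without replicate 2 of the warm HY/HY mice Coq7 alone was called, with 177 of 16882 genes passing as lower. Without replicate 1 of the warm HY/HY mice Pdss1 was called as well, with 605 of 16829 genes passing as lower.

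COQ8B, also known as ADCK4, is the paralogue of COQ8A. Coq8b stood at 25.3, 24.6 and 39.1 CPM in warm and 28.2, 34.4 and 35.1 CPM in cold wild-type mice, and at 24.0, 29.3 and 37.6 CPM in warm and 31.4, 30.0 and 48.0 CPM in cold HY/HY mice. All 4 groups overlapped, and the cold difference in wild-type mice was 1.1-fold, with a 95% interval from 0.774 to 1.56 (adjusted p = 0.701). The log2 ratio of Coq8a to Coq8b counts averaged 1.19 ± 0.20 (SD, n = 3) in warm and 3.15 ± 0.38 in cold wild-type mice, with no overlap and a difference of 1.96 (two-sided exact permutation test, p = 0.1). In HY/HY mice it averaged 0.68 ± 0.79 in warm and 1.48 ± 0.30 in cold mice, which overlapped (difference 0.80, exact permutation p = 0.2). Between the genotypes at 8°C the ratio was lower in HY/HY mice by a difference of -1.68, again without overlap (exact permutation p = 0.1), and at 30°C the difference was -0.51 (exact permutation p = 0.4). Over the 8 tests of both ratios, the 4 that reached the smallest possible p had a Benjamini-Hochberg adjusted p of 0.2 in this exact permutation test.

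**Figure D3:**
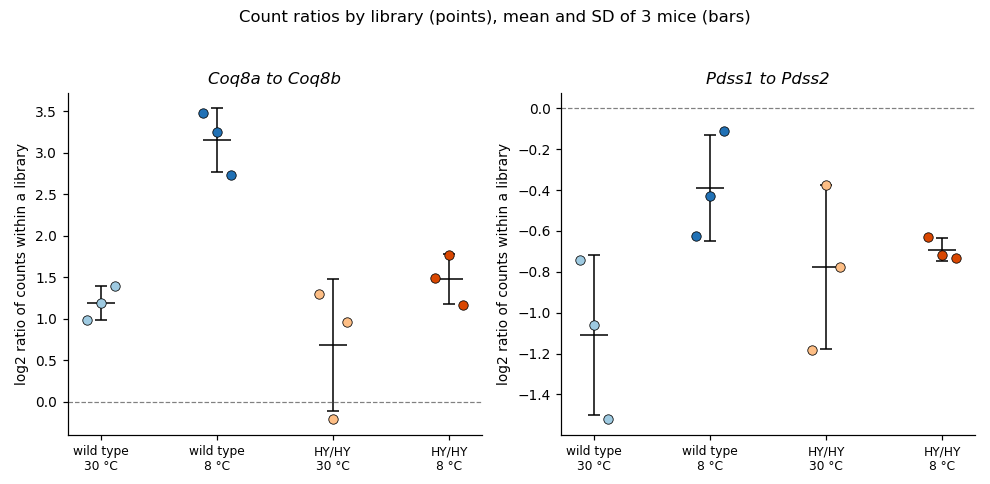
Log2 ratio of counts within each library for Coq8a to Coq8b on the left and Pdss1 to Pdss2 on the right, with points for libraries and bars for the mean and SD of 3 mice. The Coq8a to Coq8b ratio lies between 2.73 and 3.48 in cold wild-type mice and at or below 1.77 in all other libraries.

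Of the 12 partners of CoQ synthesis and handling, 6 were called higher and 1 lower in the cold in wild-type mice. The shares of all genes called there were 10.3% higher and 6.93% lower. With library totals in place of TMM, 2 were called higher and 2 lower, against 1057 and 4133 of all 16540 genes. HPDL, which takes part in making the ring precursor, is encoded by Hpdl. It stood at 1.09, 1.51 and 1.38 CPM in warm and 15.7, 12.5 and 15.9 CPM in cold wild-type mice, and at 1.04, 0.825 and 1.30 CPM in warm and 4.01, 4.81 and 2.27 CPM in cold HY/HY mice. Hpdl rose 11-fold in wild-type (adjusted p = 2.0e-05) and 3.55-fold in HY/HY mice (adjusted p = 0.0246), and at 8°C it stood at 25.4% of the wild-type level in HY/HY mice (adjusted p = 0.0019). Its warm levels rest on 24 to 42 counts per library. The call of Hpdl in HY/HY mice was lost with only the libraries of that comparison (adjusted p = 0.204) and with any 1 of 7 libraries left out (adjusted p between 0.0554 and 0.122).

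Coq10a, whose product binds CoQ and assists its use in the respiratory chain, stood at 29.0, 33.6 and 38.2 CPM in warm and 100.5, 106.2 and 104.4 CPM in cold wild-type mice, and at 28.1, 32.8 and 42.6 CPM in warm and 38.7, 45.5 and 41.1 CPM in cold HY/HY mice. The cold HY/HY libraries overlapped the warm ones, far below the cold wild-type level. Coq10a rose 3.09-fold in wild-type mice (adjusted p = 4.2e-05), was at 40.3% of the cold wild-type level in HY/HY mice (adjusted p = 0.00099), and its cold response differed between the genotypes (log2 difference -1.35, SE 0.21, adjusted p = 0.0113). Its paralogue Coq10b was at 1.76-fold in the cold in wild-type mice and was not called (adjusted p = 0.137). Pptc7, a mitochondrial phosphatase linked to CoQ synthesis, rose 1.76-fold in wild-type mice (adjusted p = 0.0019) but stood under the fold limit with library totals, and Adck5, a further gene of the COQ8 family, fell to 0.465-fold (adjusted p = 0.0223). The call of Adck5 was lost without replicate 2 of the warm wild-type mice, the library with muscle markers (adjusted p = 0.0956), and without any 1 of the 3 cold wild-type libraries. Coq10a stands on the same list of JMJD1A targets as Coq8a and Coq9, and an entry of that list appears to be Hpdl, so their directions are not independent of it either.

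The mevalonate pathway, which supplies the isoprenoid units of the tail, had 9 of its 10 listed genes among the genes tested. In the cold in wild-type mice 2 of the 9 were called higher, Pmvk (2.45-fold, adjusted p = 0.0208) and Acat2 (2.16-fold, adjusted p = 0.0292), against 10.3% of all genes. The other 7 were not called, and the median log2 fold change of the 9 was 0.24. Both calls were lost without replicate 2 of the warm wild-type mice, the library with muscle markers, at an adjusted p of 0.0805 for Pmvk and 0.105 for Acat2. Leaving out replicate 1 of the warm or replicate 1 or 2 of the cold wild-type mice ended both calls as well. In the other comparisons none of the 9 was called, and at 8°C their median between the genotypes was -0.0054.

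A list of 14 genes held those whose products feed electrons to ubiquinone, some of them by way of another protein of the list. In the cold in wild-type mice 9 of the 14 were called higher and 0 lower, against 10.3% and 6.93% of all genes. Their median was 1.08 on the log2 scale. With library totals 8 were called higher and 2 lower, against 1057 and 4133 of all 16540 genes. With 1 library left out, between 7 and 9 were called higher and between 0 and 1 lower. Etfdh, which feeds electrons from fatty acid oxidation, rose 5.85-fold (adjusted p = 4.9e-05), and Gpd2, which feeds them from glycerol phosphate, rose 4.87-fold (adjusted p = 4.6e-05). At 8°C 4 of the 14 were lower in HY/HY than in wild-type mice (Gpd2, Sdhb, Sdhd and Etfdh), with Gpd2 at 0.398-fold (adjusted p = 0.0040). Among all genes 4.42% were called lower there. All 9 nuclear subunits of complex III, which takes the electrons from ubiquinone, rose with cold in the wild type, at a median of 1.93 and, at the top, 4.50-fold for Cyc1 (adjusted p = 4.4e-05). All 9 were lower in HY/HY mice at 8°C, with a median of -1.11. The shares of all genes are again 10.3% higher in the cold in wild-type mice and 4.42% lower at 8°C. With 1 library left out, between 6 and 9 were called lower at 8°C, and the calls lost were those of Uqcrc2, Uqcr10 and Uqcr11. Etfdh lost its call at 8°C with any 1 of 5 libraries left out (adjusted p up to 0.0900). Etfdh, Gpd2, Sdhb, Cyc1, Uqcr10, Uqcr11, Uqcrb and Uqcrc2 are on the study's list of JMJD1A targets, as entries read as Uqcrfs1 and Uqcrq appear to be, so these directions are not independent of that list. Beside these medians the CoQ synthesis genes stood at 1.43 and -0.65.

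**Figure D4:**
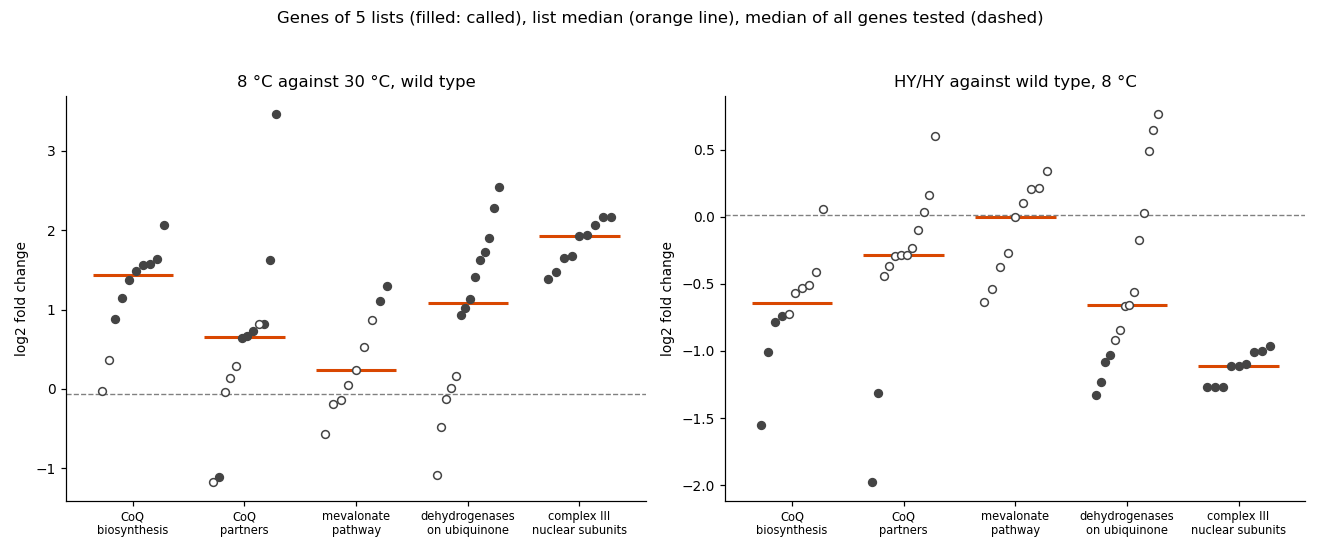
Log2 fold change of every tested gene of 5 lists (CoQ biosynthesis, CoQ partners, mevalonate pathway, dehydrogenases on ubiquinone, complex III), in the cold in wild-type mice on the left and between the genotypes at 8°C on the right. Orange lines are list medians, 1.43 and -0.65 for CoQ biosynthesis and 1.93 and -1.11 for complex III, and the dashed line is the median of all genes tested.

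The pattern of the CoQ genes over the 4 groups was described by the median of their centred log2 CPM, -0.56 in warm and 0.80 in cold wild-type mice and -0.40 in warm and 0.091 in cold HY/HY mice. Coq3, Pdss1, Coq5, Coq6, Coq9, Coq7 and Pdss2 lay within a root-mean-square difference of 0.17 of it. Coq4 (0.41), Coq8a (0.49) and Coq2 (0.54) lay farther off, Coq8a with larger differences between the groups and Coq4 and Coq2 with smaller ones. The CoQ genes themselves set this median, so their closeness to it is partly built in and does not test for a shared pattern. Of all 16540 genes tested, the members included, 394 lay nearer to the pattern than Pdss2. Non-members with a symbol of their own, 14960 genes, were then ranked, with a median root-mean-square difference of 0.58. The non-members nearest to the pattern were Uqcrh-ps1 (0.027), Gm5457 (0.030), Mrpl30 (0.039), Gm10221 (0.040) and Pde4d (0.040), over 4 group means of 3 libraries each. Mrpl30 encodes a mitochondrial ribosomal protein and Pde4d a phosphodiesterase that degrades cyclic AMP. Counts of Uqcrh-ps1, a pseudogene by its symbol, may be uncertain where it shares sequence with its parent gene.

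Each of Coq9, Coq6 and Coq4 has a neighbour on the opposite strand whose start site lies within 500 bases, a property looked up after the levels were known. Coq9 and Ciapin1, a gene of cytosolic iron-sulphur assembly, start 73 bases apart, and Ciapin1 rose in the cold in wild-type mice (log2 1.65, adjusted p = 1.7e-05) and was lower in HY/HY mice at 8°C (log2 -1.33, adjusted p = 0.00063). Coq6 and Fam161b start 140 bases apart, and Fam161b was not called in the cold in wild-type mice (log2 0.38, adjusted p = 0.263) or between the genotypes at 8°C (log2 -0.065, adjusted p = 0.91). Coq4 and Trub2 start 178 bases apart, and Trub2 was not called in either comparison (log2 0.24, adjusted p = 0.207, and log2 0.22, adjusted p = 0.382).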

How the data were processed

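RNA-seq was analysed for 12 libraries of scWAT, 3 mice in each of 4 groups, with groups taken from the labels. According to the methods of the study and the labels, reads of 50 bases in pairs were checked with FastQC, trimmed with fastp and aligned to mm10 with STAR. The authors deposited raw counts of read pairs per gene for each library, without normalization, in 3 columns (both strands and each strand). Versions, and the test behind the study's gene numbers, were not given in the sources used here. StringTie and GENCODE M25 are named there for FPKM values, which were not used here. The stranded column with the larger total, between 95.5% and 96.2% of both, was taken as the sense strand and used. Read pairs that aligned to several places (26.7% to 32.2%), that did not align (25.1% to 28.8%), that fell outside genes (1.99% to 3.20%) or on several genes (0.93% to 1.1%) stayed out of library sizes and tests.

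The deposited counts were fitted with edgeR 4.0.16 in R 4.3.3, by the quasi-likelihood method on all 12 libraries, with 1 mean per group, filterByExpr and TMM scaling (factors from 0.859 to 1.17). The common biological coefficient of variation was 20.7% with 8 residual degrees of freedom, and p-values are two-sided and adjusted over all 16540 genes. The fold limits of 1.5 and 0.67 follow the study's target list, and the interaction used the limit on p alone. Ratios within a library used counts plus 0.5. Symbols were matched for 32589 of 55401 gene IDs, of which 2731 shared a symbol. The steps were tested on simulated data. Each library is 1 mouse, and the total of each sets its precision.

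Same-numbered libraries deviated together for the cold comparison in HY/HY mice, with correlations of 0.112, 0.199 and 0.303 across genes, so the replicate number was also fitted as a block there. The labels name no shared litter or day. Alternatives were RLE size factors, library totals, DESeq2 1.42.0, mitochondrial genes left out of library sizes, other filters, both strands, no limit on fold, only the libraries compared, the block, and each library left out. The members, the lists and the tests were chosen with earlier results of these data known. Named were all 10 members, Coq8b, Coq10a, Coq10b, Hpdl, at most 4 called genes with the largest change per list and comparison, and the 5 genes nearest in pattern.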

Additional observations from a re-analysis of the deposited data

Results flagged for a closer look

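Coq6, Coq7 and Coq10a were singled out because their cold response differed between the genotypes in the interaction test of edgeR. The response in HY/HY mice minus that in wild-type mice was -1.08 on the log2 scale for Coq6 (adjusted p = 0.0327), -1.30 for Coq7 (adjusted p = 0.0221) and -1.35 for Coq10a (adjusted p = 0.0113). Across the alternatives, that p lay between 0.0010 and 0.0962 for Coq6, between 0.00011 and 0.0759 for Coq7, and between 1.6e-06 and 0.0465 for Coq10a.

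Reads on the strand opposite to the gene, which entered only the alternative with both strands, exceeded 5% of the reads counted on 3 of the 10 genes. Over the 12 libraries they came to 272 counts for Pdss1 (16%), 238 for Coq4 (6.51%) and 1638 for Coq8a (6.19%). Each of these genes overlaps another gene annotated in RefSeq. For the other 7 members the share was between 0.0143% and 0.35%, although Pdss2, Coq6 and Coq9 among these 7 also overlap another gene. With both strands counted together, the same 8 members were called higher in the cold in wild-type mice, as were 1701 of 16626 genes.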

How the results depend on the processing

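The 8 calls in the cold in wild-type mice held under each alternative except library totals, where Pdss2 was lost and 7 remained. No alternative turned the direction of a called member. For the cold in HY/HY mice, the 0 members called higher became 1 without a filter on low counts, 2 with DESeq2 and 3 with the replicate block. Of all genes 0.326%, 0.696% and 0.774% were called higher in these fits, against 0.181% in the main fit. With 1 library left out between 0 and 4 members were called, the 4 where 2.72% of all genes were. At 30°C the 0 members called higher in HY/HY mice became between 0 and 2 with 1 library left out, the 2 where 1.61% of all genes were. At 8°C the 4 members called lower became between 1 and 5 with 1 library left out. The 5 came without replicate 1 of the warm HY/HY mice, with 777 of 16829 genes called lower. DESeq2 called 6 members and 3.04% of its genes lower. The 2 members of the interaction became between 0 and 3 with 1 library left out, and 3 both with DESeq2 and with the replicate block. In these last fits 696 of 30898 and 469 of 16540 genes passed as lower, against 342 of 16540 in the main fit. Counts of members are out of 10. Of all genes, between 64 and 605 passed the interaction as lower with 1 library left out. The cause of the changes was not tested, beyond the fewer libraries. Elsewhere same-numbered libraries did not all deviate together, and the block left 8 called in the cold in wild-type mice, 4 at 8°C and 0 at 30°C. With 1 library left out, the Coq8a to Coq8b difference was between 1.80 and 2.18 in the cold in wild-type mice and between -1.89 and -1.51 at 8°C, and the Pdss1 to Pdss2 difference was between 0.51 and 0.90 and between -0.42 and -0.16. Of the members' own fold changes, 1022 stayed on their side of the limits, 22 gained a call and 36 lost one. With 3 mice a group, the differences of Pdss2 and Coq5 between the genotypes at 8°C did not pass the test.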
